A study of Mus musculus with 2 samples.

Results

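The cells described here were Retnlg-low neutrophils of tumors, a set of 1275 cells among 19826 cells of 2 single-cell libraries. A cell was a barcode with at least 500 unique molecular identifiers (UMIs, each standing for a captured RNA molecule), over 200 and under 6000 genes and under 5% mitochondrial UMIs. Members had S100a8 and S100a9 together at 2% or more of their UMIs, no UMI of Csf1r, Retnlg below 0.1% of UMIs and at most 1 of the interferon-response genes Trim30c, Ifit1bl2, Gbp5 and Ddx60 detected. These values chose the members, so the levels of these 8 genes are a description and support nothing. The control IgG library held 1109 members and the anti-CD3L1 library 166. Cells that met the same rule with Retnlg at 0.1% or more are called Retnlg-high neutrophils here (2256 and 183 cells). Cells with at least 2 of the 4 interferon-response genes are called interferon-response neutrophils (420 and 40 cells).

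The human osteosarcoma line 143B was grown as tumors under the skin of female nude mice that were 4 weeks old. Nude mice lack a thymus and therefore nearly all T cells, while their myeloid cells remain. The mice received 10 mg/kg of a human IgG1 isotype control (control IgG) or 10 mg/kg of the antibody anti-CD3L1, 4 times at intervals of 3 days. Each library pooled 3 tumors after a bead sort for CD45, a surface protein of immune cells, and nothing in the files says which cell came from which tumor. With 1 library per group nothing was tested across samples, and each interval below is a 95% interval for counting error alone.

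Neutrophils are short-lived phagocytes that leave the bone marrow with granules full of antimicrobial proteins made during maturation. As they mature they lose the messages of those granule proteins, gain receptors for chemokines and bacterial products, and carry large amounts of S100a8 and S100a9, the subunits of calprotectin. Retnlg encodes a secreted resistin-like protein that is abundant in mature neutrophils of blood and marrow. In tumors neutrophils are known for making chemokines and interleukin 1, and poorly perfused regions expose them to low oxygen, to which cells respond through hypoxia-inducible factors.

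Retnlg-low cells were fewer among all cells of the anti-CD3L1 library than of the control IgG library. They were 12.96% (exact binomial interval 12.3 to 13.7%) of 8557 control IgG cells and 1.47% (1.26 to 1.71%) of 11269 anti-CD3L1 cells. Of all neutrophils chosen by S100a8, S100a9 and Csf1r, 3785 and 389 cells, they were 29.3% (27.9 to 30.8%) and 42.7% (37.7 to 47.8%). Where S100a8 and S100a9 had to reach 10% of UMIs, these shares of the neutrophils were 21.5% and 24.8%, the latter from 39 members. The intervals count cells of 1 library each and give no test between the treatments, and the cells also differed in depth. The median member held 3649 UMIs and 1053 genes in the control IgG library against 1919 UMIs and 814 genes in the anti-CD3L1 library. A share of 0.1% is read from fewer UMIs in a shallower cell, and the part of depth in these shares was not tested. The sums behind the levels below were 4390545 UMIs and 337266 UMIs, so that 3 UMIs, the limit that a count of 0 allows, stood for 0.683 and 8.90 CPM, the UMIs of a gene scaled to the total UMIs of the class of cells. Of the barcodes, 26 occurred among the cells of both libraries, and none of these was a member in both.

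The thresholds cut through continuous values. No UMI of Retnlg was found in 528 control IgG members (47.6%) and in 110 anti-CD3L1 members (66.3%). Just inside the threshold, with Retnlg at 0.05 to 0.1%, there were 275 and 36 cells, and just outside it, at 0.1 to 0.2%, there were 396 and 47. The median share of S100a8 and S100a9 was 11.1% in the control IgG members and 6.71% in the anti-CD3L1 members, below the 19.4% and 10.8% of Retnlg-high cells. Between 2 and 3% of this share lay 70 and 23 members, and between 1 and 2% lay 84 and 28 cells that met the rest of the rule. A further 628 and 48 cells were left out for a Csf1r UMI alone. In the control IgG library C1qa, a complement subunit made by macrophages, was at 177 CPM in these against 27.6 CPM in the members, and Apoe, an apolipoprotein of macrophages, at 909 CPM against 139 CPM. In the 48 cells of the anti-CD3L1 library C1qa was at 19.6 CPM against 80.1 CPM and Apoe at 1819 CPM against 519 CPM. Of the 4 interferon-response genes, 1 was detected in 284 and 39 members.

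The members carried the genes of neutrophils, and most of these differed by less than 2-fold from the Retnlg-high cells. Of 20 neutrophil identity genes fixed as a list, all 20 passed the filter of a mean of 50 CPM in each library. Ly6g and Mmp8 were lower than in Retnlg-high cells in both libraries and Wfdc21 in the anti-CD3L1 library, and the other 18 and 17 genes did not differ by 2-fold. Ly6g in both libraries and Mmp8 in the anti-CD3L1 library were below 50 CPM in the members. They were tested there only because Retnlg-high cells had more, so these calls support nothing. Csf3r, the receptor for the growth factor that drives neutrophil production, was at 1054 CPM in the control IgG members and 1643 CPM in the anti-CD3L1 members. Retnlg-high cells of the same libraries had 1186 and 1587 CPM of Csf3r. NK-rule cells, which carry at least 3 of 7 natural killer genes, no Csf1r UMI and less than 2% of S100a8 and S100a9, served as the background, and they had 7.52 and 3.16 CPM. G0s2, a regulator of lipid breakdown that neutrophils express strongly, was at 3618 and 3466 CPM in the members. Il1b, the interleukin 1 beta gene, was the most abundant gene of the list, at 10625 and 6656 CPM. After each cell was thinned to 500 UMIs, Csf3r was detected in 39.0% (36.2 to 42.0%) and 46.4% (38.6 to 54.3%) of members, against 0.671% and 0.118% of NK-rule cells. Without thinning the shares were 89.9% and 91.0%.

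Defining markers of other cell types were low, and those of macrophages and monocytes were below their level in free RNA. The 12 macrophage markers summed to 433 CPM in the control IgG members and 1109 CPM in the anti-CD3L1 members. In nearly empty barcodes, which held 25 to 43 UMIs in the control IgG library and 13 to 67 in the anti-CD3L1 library and were taken as the profile of free RNA, the same 12 genes summed to 5210 and 13881 CPM. The most abundant was Cd68 (149 CPM), a lysosomal protein that neutrophils also make at low levels, in the control IgG members and Apoe (519 CPM) in the anti-CD3L1 members. Mrc1, the mannose receptor, was at 0 in the latter. A single cell gave 39.2% of the Apoe UMIs and 47.1% of the C1qa UMIs of the control IgG members.

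The 8 monocyte markers summed to 105 and 196 CPM, led by Ly6c2 (22.3 and 101 CPM), against 702 and 1292 CPM in nearly empty barcodes, and Vcan was at 0 in the anti-CD3L1 members. The 10 NK markers summed to 34.4 and 11.9 CPM, led by Gzma (16.4 and 5.93 CPM), against 5117 and 4658 CPM in NK-rule cells. Klrb1c and Klra8 were at 0 in the members of both libraries. T cell markers summed to 12.3 and 35.6 CPM, nearly all of it Cd3d, with Cd3e, Cd3g, Trac and Cd8a at 0 in both. Dendritic cell markers reached 2.28 and 44.5 CPM (Ccr9 32.6 CPM in the latter) with Flt3, Cd209a and Ccr7 at 0 in both, and B cell markers 3.64 and 20.8 CPM, led by Ighm, with Cd79a and Pax5 at 0. Each list for endothelial cells, fibroblasts, eosinophils, mast cells, and erythroid cells or platelets summed to 21.9 CPM or less.

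**Figure D1:**
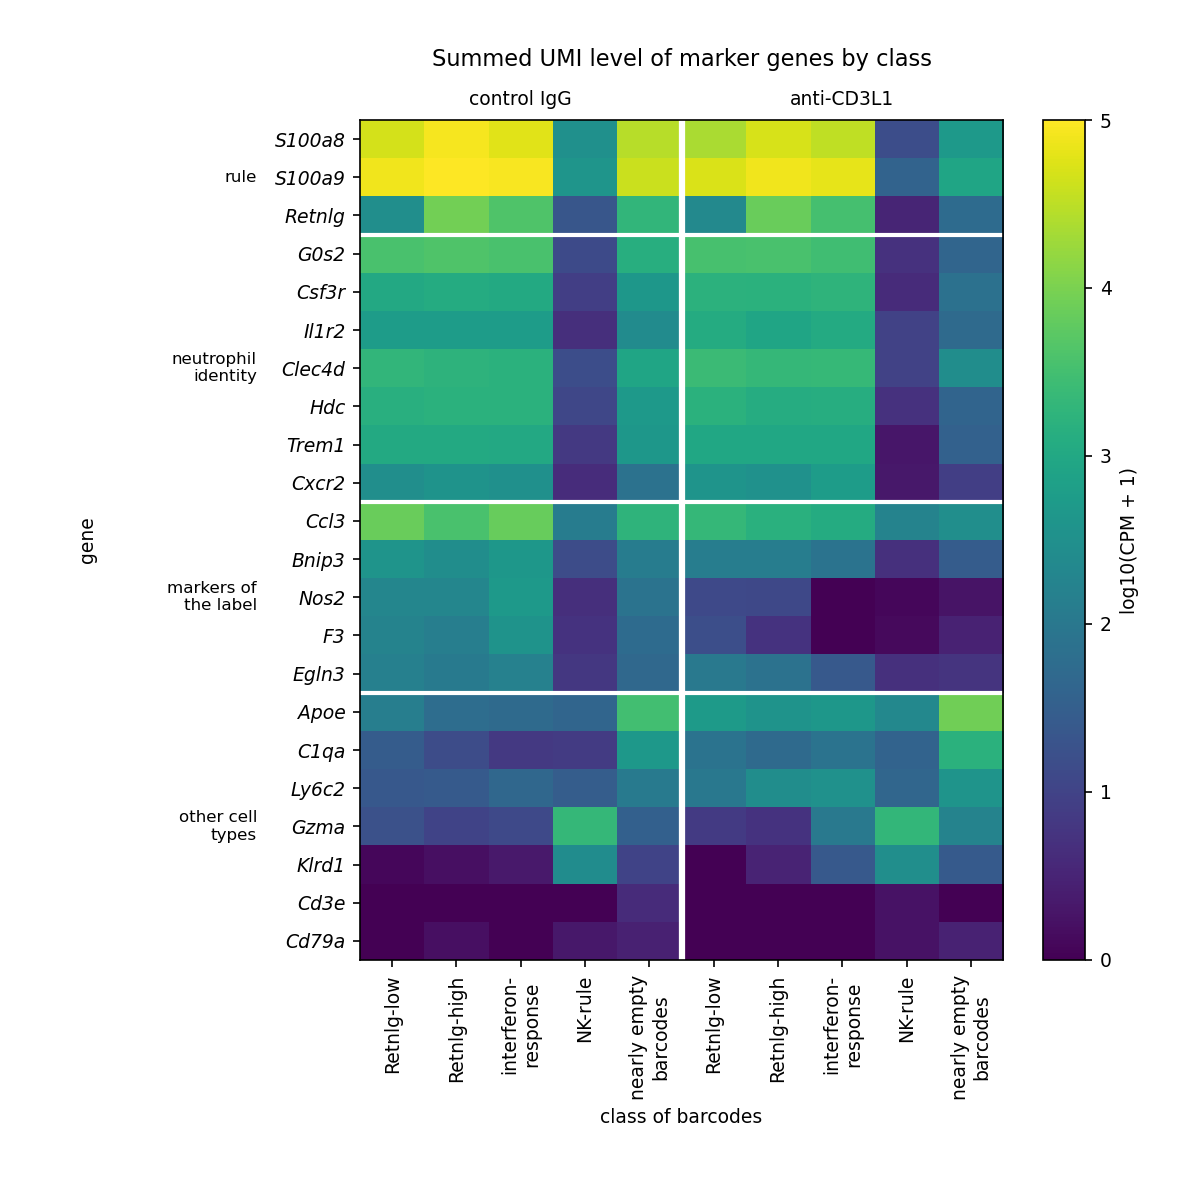
Colors give log10(CPM + 1) of summed UMIs for 22 genes (vertical axis) in 5 classes of barcodes of each library (horizontal axis). Csf3r stood at 1054 and 1643 CPM in Retnlg-low cells against 7.52 and 3.16 CPM in NK-rule cells, and Nos2 and F3 were brighter in control IgG neutrophils than in those of the anti-CD3L1 library.

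Of the markers proposed for these cells as a stressed state, Ccl3 alone was at least 2-fold higher than in Retnlg-high neutrophils of the control IgG library. In the anti-CD3L1 library 3 were tested and 0 called. The 5 that the rule did not use were F3, Nos2, Ccl3, Egln3 and Bnip3. All of them passed the filter in the control IgG library and had a log2 ratio above 0 there, with a median of 0.34. The median over all genes tested there was 0.16. Throughout, a gene is called higher or lower when its CPM differed by at least 2-fold and the counting interval of the ratio excluded 1. Of 1935 genes tested in this comparison 29 (1.5%) were called higher and 22 (1.14%) lower. Centred on the median of all ratios the counts were 13 and 28, and with S100a8, S100a9 and mitochondrial genes out of the total 23 and 32. The cells are therefore named here by their low Retnlg only.

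F3, which encodes tissue factor, the starter of coagulation, was at 168 CPM in the control IgG members and 139 CPM in Retnlg-high cells, a log2 ratio of 0.27 (0.14 to 0.40). Nos2, the inducible nitric oxide synthase, was at 197 and 192 CPM, a log2 ratio of 0.03 (−0.08 to 0.15). Both genes were higher in interferon-response neutrophils of this library, at 366 and 508 CPM. The members with 1 detected interferon-response gene had 339 CPM of F3. Against the interferon-response cells, of which 12 genes of 1965 (0.611%) were called higher in the members and 59 (3%) lower, F3 and Nos2 were called lower with log2 ratios of −1.13 and −1.37.

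Egln3, a prolyl hydroxylase that marks hypoxia-inducible factors for decay and is itself induced by them, was at 147 CPM in the control IgG members and 116 CPM in Retnlg-high cells, and Bnip3, a mitochondrial protein of the same response, at 391 and 283 CPM. Their log2 ratios were 0.34 (0.21 to 0.48) and 0.46 (0.38 to 0.55), beside a median of 0.16 over all genes tested. Ccl3, a chemokine that attracts monocytes, was at 7276 and 3596 CPM, and its log2 ratio of 1.02 (0.996 to 1.04) fell under 2-fold when the ratios were centred on their median (0.85). So it did with cells with Csf1r UMIs kept (0.71) and with S100a8 and S100a9 at 10% or more (0.88). With none of the 4 interferon genes, and when thinned to 500 UMIs, it was 0.94 each time. In the anti-CD3L1 members F3 and Nos2 rested on 5 and 4 UMIs and did not pass the filter against Retnlg-high cells. Bnip3 was at 130.5 CPM there and 129.8 CPM in Retnlg-high cells, and Ccl3 at 2182 and 1463 CPM (0.58, not called).

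In the control IgG library most tested genes of the hypoxia and stress response lists lay a little above 0, and none was called. Of 25 hypoxia response genes 16 passed the filter and 13 had a log2 ratio above 0, with a median of 0.39 beside 0.16 over all genes. Of 18 genes of the integrated and ER stress response 10 passed and 9 lay above 0 (0.43). Since the median over all genes was above 0, most tested genes of any kind lay above 0 as well. With 1.5% of all genes called higher, a count of 0 in lists of this size is not read as a difference from other genes. Of 12 heat shock genes 7 passed with none called (0.08), and of 14 immediate early genes 12 passed with none called (0.08). In the anti-CD3L1 library, where of 2341 genes tested 89 (3.8%) were called higher and 67 (2.86%) lower with a median log2 ratio of 0.11, Bhlhe40, a repressor of the clock and of hypoxic metabolism, was the only called gene of these 4 lists (264 against 123 CPM). The counts of that library were 66 and 87 when centred, and 77 and 95 with those genes out of the total. Of the other hypoxia genes there 14 were tested and not called, as were 11 stress response, 7 heat shock and 12 immediate early genes.

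The hypoxia list was checked against promoter sequence, because Egln3 and Bnip3 had been proposed as marks of these cells. The core letters bound by hypoxia-inducible factors, ACGTG or GCGTG on either strand, were searched in the 250 bases before each start in the RefSeq promoters of build GRCm38.p6. They occurred in 16.6% and 28.2% of 32851 promoters. Of the 22 hypoxia genes with an entry, 16 held ACGTG and 17 GCGTG. The promoter of Bnip3 (chr7:138909507-138909756, minus strand) held 5 matches, some overlapping, and that of Egln3 (chr12:54203875-54204124, minus strand) held 1, in capitals below, while that of F3 held neither. A match describes the letters and does not show binding.
Bnip3: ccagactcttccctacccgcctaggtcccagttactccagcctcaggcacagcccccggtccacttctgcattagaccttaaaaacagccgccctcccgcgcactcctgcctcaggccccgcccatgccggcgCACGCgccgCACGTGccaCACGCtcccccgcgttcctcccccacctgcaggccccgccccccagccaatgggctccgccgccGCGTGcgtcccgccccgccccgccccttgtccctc
Egln3: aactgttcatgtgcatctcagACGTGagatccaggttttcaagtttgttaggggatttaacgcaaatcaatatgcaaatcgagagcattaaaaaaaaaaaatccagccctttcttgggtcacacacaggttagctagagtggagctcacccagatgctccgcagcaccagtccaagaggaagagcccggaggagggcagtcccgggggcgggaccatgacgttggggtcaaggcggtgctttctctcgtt

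A small set of genes differed between Retnlg-low and Retnlg-high neutrophils in both libraries, with Saa3 the farthest on the higher side and the granule genes Ngp and Camp on the lower side. Of 1819 genes tested in both libraries, 8 (0.44%) were called higher and 13 (0.715%) lower in the members of each, and none was called in opposite directions. Of the 1819 genes 1264 (69.5%) had the same sign. The members were chosen by Retnlg, so genes that vary with Retnlg differ by that choice, and the values are a description. The median of all ratios lay above 0 in both libraries, beside the smaller part of the total that S100a8 and S100a9 took in the members, and small differences are read against it.

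Markers of macrophages moved with the group. The 12 macrophage markers summed to 433 CPM in the control IgG members against 295 CPM in Retnlg-high cells, and to 1109 against 772 CPM in the anti-CD3L1 library. Apoe was at 139 against 61.3 CPM and called higher in the control IgG library (1.18), where 1 member held 39.2% of its UMIs, and at 519 against 370 CPM in the anti-CD3L1 library (0.49, not called). Ly6c2, the most abundant monocyte marker, was lower in the anti-CD3L1 members (101 against 277 CPM). Without cells that carried 2 or more markers of other cell types, 2 genes were called higher and 7 lower in both libraries. Such cells were 19.0% of Retnlg-low and 23.4% of Retnlg-high cells in the control IgG library and 53.0% and 43.7% in the anti-CD3L1 library, and the part of such RNA in single genes was not tested.

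Saa3, which encodes an acute-phase apolipoprotein, had the largest difference of the genes called higher in both. It was at 11425 CPM in the control IgG members against 2975 CPM in Retnlg-high cells, a log2 ratio of 1.94 (1.92 to 1.96), and at 6248 CPM in nearly empty barcodes. After anti-CD3L1 it was at 91.9 against 13.2 CPM (2.80, 1.52 to 4.35). That value rested on 31 UMIs in 5 members, 41.9% of them from 1 cell, and nearly empty barcodes had 62.3 CPM. Saa3 was not called in this library with none of the 4 interferon genes (1.25) or without the cells of highest doublet score (2.15). Nor was it called there with Retnlg under 0.2% (3.61) or with S100a8 and S100a9 at 10% or more (4.04). The call was also lost when cells were thinned to 500 UMIs and when cells with Csf1r UMIs were kept. In the control IgG library 35.9% (33.1 to 38.8%) of thinned members had a Saa3 UMI, against 22.2% (20.5 to 23.9%) of Retnlg-high and 2.01% of NK-rule cells, and without thinning 61.7% of members did. Of 166 anti-CD3L1 members 0 had one at 500 UMIs a cell, which allows a share of up to 1.81% at that depth, and 3.01% had one without thinning.

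Clec4n, the lectin receptor Dectin-2, which recognizes fungal mannans, was at 171 against 64.2 CPM in the control IgG library and at 439 against 141 CPM in the anti-CD3L1 library. The log2 ratios were 1.41 (1.27 to 1.56) and 1.64 (1.21 to 2.09), and both levels of the members were above those of nearly empty barcodes (120 and 112 CPM). With S100a8 and S100a9 at 10% or more the anti-CD3L1 ratio was 0.68 and not called. Il23a, the subunit particular to interleukin 23, was at 172 against 70.2 CPM and at 116 against 30.8 CPM (1.29, 1.15 to 1.44, and 1.91, 0.995 to 2.90). The anti-CD3L1 value rested on 39 UMIs in 16 members, 28.2% of them from 1 cell, and the gene was not called there without cells that carried markers of other types (0.62), without its 5 top cells or when thinned. Icam1, an adhesion receptor that rises on activated and aged neutrophils, was at 375 against 185 CPM and at 400.3 against 181 CPM (1.02 and 1.15). In neither library was it called with Retnlg under 0.2% (0.99 and 0.81) or with cells with Csf1r UMIs kept (0.87 and 0.84). The same held without cells that carried markers of other types (0.94 and 0.72).

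Mpeg1, the pore-forming perforin-2 of phagocytes, was at 181 against 85.4 CPM and at 270 against 92.4 CPM, in the presence of 135 and 318 CPM in nearly empty barcodes. Tgm2, a transglutaminase that crosslinks proteins, was at 137 against 65.6 CPM and at 353 against 176 CPM, with 189 and 368 CPM in nearly empty barcodes. Nsf, a membrane fusion ATPase, and Mylip, a ubiquitin ligase for lipoprotein receptors, completed the set with log2 ratios of 1.08 and 1.01 in the control IgG library and 1.57 and 1.04 in the anti-CD3L1 library. Free RNA was thus at or above the members' own level for Mpeg1 in the anti-CD3L1 library and for Tgm2 in both, and its part in these differences was not tested. Of the 8 genes, Saa3, Clec4n and Il23a stayed past 2-fold in both libraries when the ratios were centred on their median. Nsf and Mylip were below 50 CPM in Retnlg-high cells of both libraries, as were Saa3 and Il23a in those of the anti-CD3L1 library. There these genes were tested only because the members had more, so those calls support nothing.

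Of the 13 genes called lower, Ngp and Camp had the lowest ratios. These and Ly6g were below 50 CPM in the members of both libraries and were tested only because Retnlg-high cells had more. Ngp, neutrophilic granule protein, was at 41.2 CPM in the control IgG members against 407 CPM in Retnlg-high cells (−3.30, −3.52 to −3.09), and 1 member held 49.7% of its 181 UMIs. Camp, the cathelicidin precursor, was at 9.79 against 94.2 CPM (−3.27, −3.74 to −2.83). After anti-CD3L1 Ngp was at 5.93 against 2718 CPM and Camp at 11.9 against 1818 CPM. There 1235 Ngp UMIs came from 9 Retnlg-high cells and 826 Camp UMIs from 5 of them, with 44.5% and 61.0% from the top cell. Without the 5 top cells of each gene the log2 ratio of Ngp in that library was 0.015. With Retnlg under 0.2% the ratios of Ngp and Camp there were 0.14 and 0.72, the other way.

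Ly6g was lower too, as were 4 of 15 tested mature neutrophil genes in each library. Ly6g, the surface antigen used to define mouse neutrophils, was at 20.0 against 144 CPM in the control IgG library and at 47.4 against 178 CPM in the anti-CD3L1 library, log2 ratios of −2.85 (−3.17 to −2.54) and −1.91 (−2.78 to −1.12). In the anti-CD3L1 library it was not called without cells that carried markers of other types (−1.01) or when thinned to 500 UMIs (−1.32). Ifitm6, a membrane protein of the interferon-induced transmembrane family, was at 156 against 824 CPM and at 199 against 717 CPM (−2.40 and −1.85). The Ifitm6 ratio of the anti-CD3L1 library was −0.77 without the 5 top cells of the gene. Mmp8, the neutrophil collagenase of secondary granules, was at 94.98 against 286 CPM and at 41.5 against 317 CPM (−1.59 and −2.93). In the anti-CD3L1 library Mmp8 was below 50 CPM in the members and passed the filter only through Retnlg-high cells, so that call supports nothing.

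Anxa1, annexin A1, a protein that limits neutrophil migration, was at 237 against 601 CPM and at 196 against 669 CPM (−1.35 and −1.77). The chemokine gene Ccl6 was at 72.0 against 149 CPM and at 347 against 788 CPM (−1.05 and −1.18). The metabolic genes Tkt, the transketolase of the pentose phosphate pathway, and Mgst1, a glutathione transferase of membranes, had log2 ratios of −1.61 and −1.33 in the control IgG library and −2.69 and −1.26 in the anti-CD3L1 library. R3hdm4, Atxn10 and Cnn2 (an actin-binding calponin) had ratios from −1.89 to −1.05 and from −1.81 to −1.21.

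**Figure D2:**
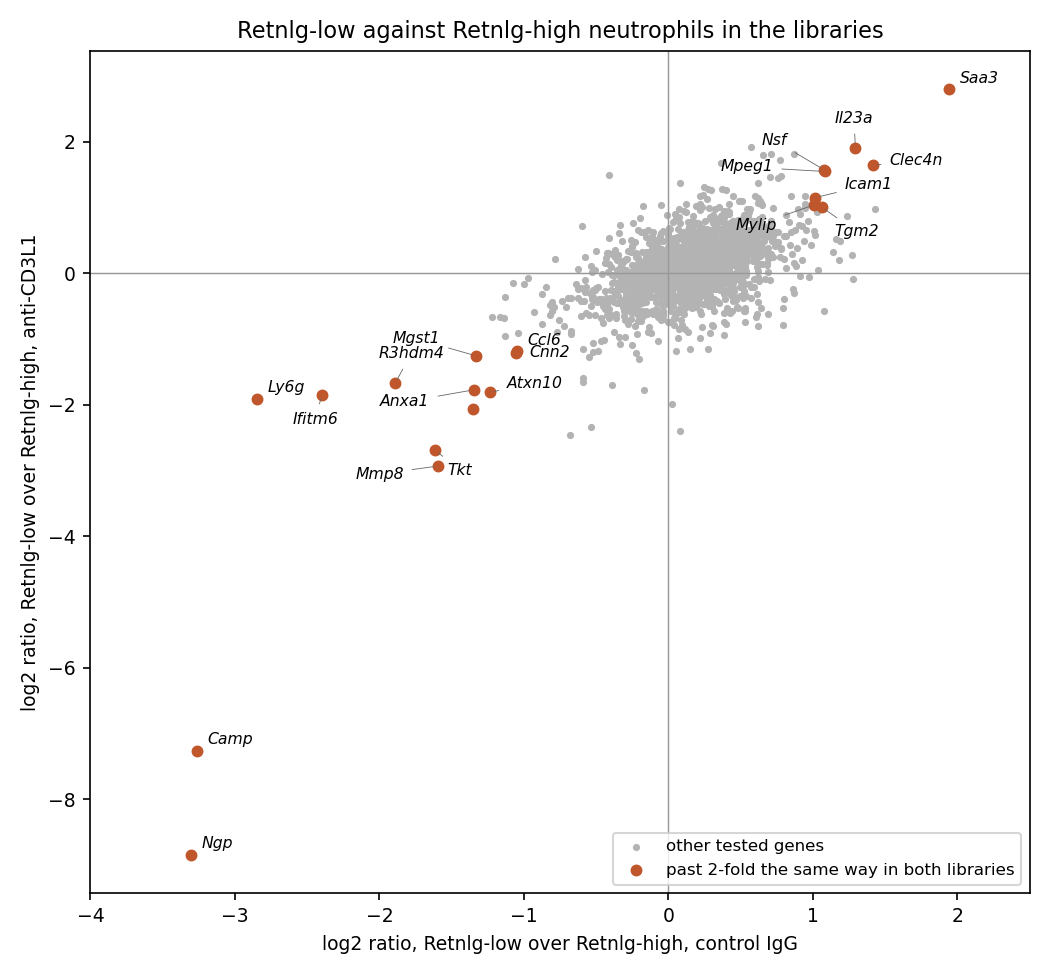
Each point is a gene, with its log2 ratio of CPM in Retnlg-low over Retnlg-high neutrophils of the control IgG library (horizontal axis) and of the anti-CD3L1 library (vertical axis). The 21 genes in orange were past 2-fold the same way in both libraries, with Saa3 at the upper right and Ngp and Camp at the lower left, where the vertical values rest on few Retnlg-high cells.

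The start sites of the lower granule genes were searched for TTGCNNAA, a core of the sites of C/EBP factors, which drive granule genes in developing neutrophils. This motif was chosen after these genes were known. It occurred, on either strand, in the 250 bases of 9.56% of the 32851 promoters. Of 15 granule genes with an entry 5 held it, among them Ngp with 2 matches (chr9:110419558-110419807, plus strand), while Camp and Ifitm6 did not. Mmp8 (chr9:7558179-7558428, plus strand) and Saa3 (chr7:46715677-46715926, minus strand), which moved in opposite directions, each held 1 match, and none of 11 chemokine genes with an entry did. The matches are in capitals.
Ngp: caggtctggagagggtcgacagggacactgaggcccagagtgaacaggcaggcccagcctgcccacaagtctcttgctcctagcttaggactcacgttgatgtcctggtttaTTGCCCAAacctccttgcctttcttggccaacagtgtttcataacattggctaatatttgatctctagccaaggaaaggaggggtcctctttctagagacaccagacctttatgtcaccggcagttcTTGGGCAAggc
Mmp8: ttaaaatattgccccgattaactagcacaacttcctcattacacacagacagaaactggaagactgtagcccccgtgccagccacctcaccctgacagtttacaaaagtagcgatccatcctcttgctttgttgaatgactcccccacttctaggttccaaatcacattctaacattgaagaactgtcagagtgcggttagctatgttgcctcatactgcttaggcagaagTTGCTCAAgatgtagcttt
Saa3: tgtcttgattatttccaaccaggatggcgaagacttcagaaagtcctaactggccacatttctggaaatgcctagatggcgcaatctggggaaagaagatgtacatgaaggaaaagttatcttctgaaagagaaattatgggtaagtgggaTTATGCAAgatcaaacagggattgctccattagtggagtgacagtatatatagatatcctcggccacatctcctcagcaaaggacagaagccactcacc

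Grouped by role, few members of most lists were called between Retnlg-low and Retnlg-high cells. Of 18 mature neutrophil genes 15 passed the filter in each library. In the control IgG library 4 were lower, Mmp8, Ifitm6, S100a6 and Pglyrp1, with a median log2 ratio of −0.38 over the 15. S100a6, a calcium-binding protein, was at 3106 against 6406 CPM, and Pglyrp1, a peptidoglycan-binding granule protein, at 389 against 853 CPM. Mmp8, Ifitm6, Stfa2 and Stfa3, the last pair being stefin A protease inhibitors, were lower in the anti-CD3L1 library (median −0.41). Mmp8 passed the filter there only through Retnlg-high cells. Of 16 granule protein genes 6 were tested in the control IgG library, where Camp, Ngp and Anxa1 were lower. In the anti-CD3L1 library 8 of 10 tested were lower, and the count was 2 without the 5 top cells of each gene. Of the 8, Ltf, Camp, Ngp, Chil3 and Cd177 were below 50 CPM in the members and passed the filter only through Retnlg-high cells, as Camp and Ngp did in the control IgG library, so they had to differ and the counts support nothing. Lcn2 was at 741 against 2947 CPM and Lyz2, the lysozyme of myeloid cells, at 599 against 2062 CPM.

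Of 17 chemokine genes 8 were tested in the control IgG library, and Ccl3 and Cxcl1 were higher and Ccl6 lower, with a median log2 ratio of 0.65. Cxcl1, a ligand of the neutrophil receptor Cxcr2, was at 405 against 150.5 CPM, with 441 CPM in nearly empty barcodes. Cxcl2, another ligand of Cxcr2 and the most abundant chemokine of the members, was at 34380 against 21595 CPM (0.67, not called). For the anti-CD3L1 library 7 were tested, none was higher and Ccl6 was lower (0.55). Of 19 cytokine genes Il23a was higher among 14 tested in the control IgG library (median 0.46). In the anti-CD3L1 library Il23a, Il1a (interleukin 1 alpha, 196 against 70.4 CPM) and Il10 (74.1 against 28.6 CPM, with 271 CPM in nearly empty barcodes) were higher among 15 tested (0.48). Il23a and Il10 were below 50 CPM in Retnlg-high cells there and passed the filter only through the members, so these calls support nothing.

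F10, the precursor of coagulation factor Xa, was at 667 against 332 CPM in the control IgG library, where it and Tgm2 were higher among 4 tested of 13 coagulation genes (median 0.64). Tgm2 alone of 3 was higher in the anti-CD3L1 library. Of 16 antioxidant and iron genes Mt1, a metallothionein, was higher among 11 tested in the control IgG library (117 against 40.0 CPM, with 712 CPM in nearly empty barcodes) and none of 10 in the anti-CD3L1 library. Mt1 was below 50 CPM in Retnlg-high cells and passed the filter only through the members, so its call supports nothing. Alox5ap, which presents arachidonate to 5-lipoxygenase, was lower in the control IgG library (649 against 1299 CPM), among 5 tested glycogen and arachidonate genes, and none of 5 was called in the anti-CD3L1 library.

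Of 16 interferon response genes Rsad2 (viperin, an antiviral enzyme) was higher among 8 tested in the control IgG library, and Ifit1 and Slfn5 among 12 in the anti-CD3L1 library. Of 9 neutrophil aging genes Icam1 was higher in both libraries and Tlr4, the endotoxin receptor, in the anti-CD3L1 library (483 against 240 CPM), among 7 and 9 tested. No gene was called in the control IgG library among 16 tested glycolysis, 12 cell death and survival, 17 receptor, 14 immunosuppression, 13 tumor neutrophil and 6 phagocyte oxidase genes. Among anti-CD3L1 cells the glycolysis genes Slc2a3 and Gpi1 were lower among 15, and the survival genes Bcl2a1a and Bcl2a1b higher among 15. There Gpnmb was higher among 14 tumor neutrophil genes, Tlr4 among 19 receptors, and none of 13 immunosuppression or 6 oxidase genes was called.

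Several genes changed by degrees along the Retnlg share in the control IgG library. From no Retnlg UMI through 0.05%, 0.1% and 0.2% to more than 0.2%, Saa3 was at 13650, 12612, 6631, 6739 and 2324 CPM. Clec4n went through 219, 166, 105, 91.4 and 59.5 CPM over the same 5 bins. S100a6 ran the other way, from 2619 through 3024, 3944 and 4150 to 6797 CPM, and Ifitm6 from 91.3 through 194, 210 and 233 to 927 CPM. Cells just inside and just outside the 0.1% threshold thus had nearly the same level of Saa3, Ccl3 (5830 and 5839 CPM) and Ifitm6. Ngp followed no such order, at 9.46, 89.3, 32.1, 100.1 and 460 CPM. Csf3r moved little, from 1003 to 1199 CPM.

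The anti-CD3L1 library differed in this respect, with bins of 36 and 47 cells on the sides of the threshold. Across it Ifitm6 went from 160 to 808 CPM, Anxa1 from 107 to 839 CPM, Ngp from 26.6 to 5858 CPM and Camp from 13.3 to 4498 CPM. Above 0.2% the levels were lower again, at 682, 602, 1477 and 758 CPM. Ngp and Camp rested on few Retnlg-high cells, 1 Retnlg-high cell held 20.2% of the Ifitm6 and 18.4% of the Anxa1 UMIs, and neither of the latter was called in this library without its 5 top cells (−0.77 and −0.88). Ccl3 was lower just inside the threshold than just outside it (1105 and 2237 CPM), and Clec4n was at 160 (82.6 to 279) and 179 (113 to 268) CPM, within the counting error.

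**Figure D3:**
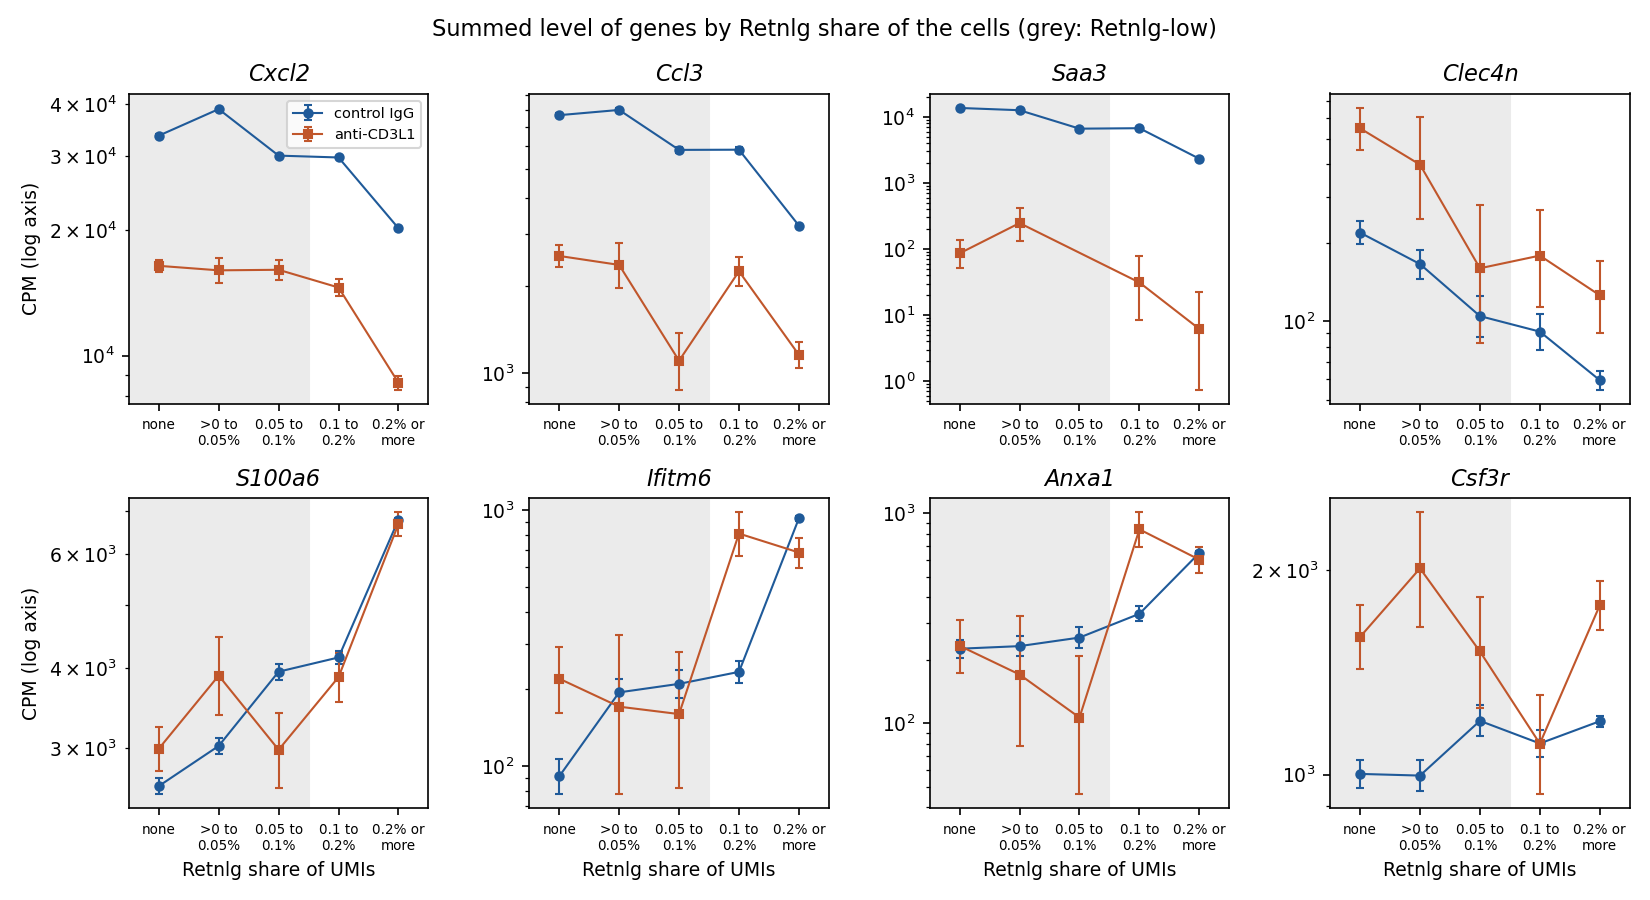
Summed CPM on log axes (vertical) of 8 genes by the Retnlg share of the cells (horizontal) in each library, with exact Poisson 95% intervals. The grey bins are Retnlg-low cells. Saa3 went from 13650 to 2324 CPM and Ifitm6 from 91.3 to 927 CPM in the control IgG library; the anti-CD3L1 Saa3 level of 0 at 0.05 to 0.1% is not drawn.

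The members also differed among themselves by their S100a8 and S100a9 share. In the control IgG library 202 members had a share of 2 to 5%, 286 of 5 to 10% and 621 of 10% or more. From the lowest to the highest share Saa3 was at 17541, 12334 and 9430 CPM, Clec4n at 290.5, 200.2 and 127 CPM, and Il23a at 327, 181 and 128 CPM. Tnf, the tumor necrosis factor gene, was at 1218, 818 and 553 CPM and Ptgs2, the inducible prostaglandin synthase, at 1364, 934 and 680 CPM. Cd74, the invariant chain of class II presentation, was at 607, 161 and 76.5 CPM, and is a gene of antigen-presenting cells more than of neutrophils. Csf3r was at 808, 1061 and 1116 CPM and G0s2 at 2415, 3507 and 3983 CPM, both lowest where the S100 share was lowest, whereas Mmp8 was at 113, 77.5 and 97.5 CPM. Nos2 (244, 185 and 189 CPM) and Bnip3 (449, 445 and 353 CPM) varied less. The anti-CD3L1 members, 66, 61 and 39 in these bins, followed the same order for Clec4n (642, 397 and 178 CPM) and Csf3r (1557, 1647 and 1771 CPM). The same held for Ccl4, F10 and S100a6, the last of which rose with the share in both libraries. It did not hold for Il23a, Tnf and Saa3. Il23a was at 60.5, 157 and 143 CPM, Tnf at 990, 1391 and 571 CPM and Saa3 at 98.2, 108 and 59.4 CPM. Cd74 was nearly level at 249, 265 and 238 CPM, and G0s2 was highest at the lowest share (3877, 3145 and 3281 CPM).

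Depth split the members as well. In the control IgG library 42 members had 500 to 1000 UMIs, 70 had up to 2000 and 997 had more. Their levels of Csf3r were 1838, 1403 and 1040 CPM and of G0s2 1203, 1758 and 3683 CPM. Ptgs2 was at 2240, 1093 and 835 CPM. In the anti-CD3L1 library the same bins held 12, 76 and 78 members, and Cxcl2 was at 7438, 10550 and 19995 CPM. Levels compared between the libraries therefore set cells of unlike depth side by side.

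Between the treatments, the anti-CD3L1 members had lower messages for Saa3, Lcn2, most tested chemokines, the formyl peptide receptors Fpr1 and Fpr2 and 4 hypoxia genes, and higher messages for most tested heat shock and interferon response genes. Of 2231 genes tested 332 (14.9%) were called higher in the anti-CD3L1 members and 99 (4.44%) lower, with a median log2 ratio of 0.31. Centred on that median the counts were 175 and 170, and with S100a8, S100a9 and mitochondrial genes out of the total 302 and 126. Each sum of the anti-CD3L1 members comes from 166 cells, and without the 5 top cells of each gene the counts were 171 higher and 269 lower. That setting takes 5 of 166 anti-CD3L1 cells but 5 of 1109 control IgG cells and keeps the totals. It thus tends to lower the anti-CD3L1 levels by its design, and the shift in counts is not read as a result. In Retnlg-high cells 16.1% of 2089 genes were called higher and 3.93% lower between the same libraries. The libraries are shared, so the ratios of Retnlg-high cells are set beside those of the members as values and not as independent evidence. Tumors, treatment and library cannot be told apart here.

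Saa3, Lcn2 and Slpi, all abundant in the control IgG members, were among the genes called lower. Saa3 was at 11425 CPM in the control IgG members and at 91.9 CPM in the anti-CD3L1 members, a log2 ratio of −6.96 (−7.52 to −6.45), beside −7.82 in Retnlg-high cells. Lcn2, lipocalin 2, which binds bacterial iron carriers, was at 9654 and 741 CPM (−3.70, −3.89 to −3.52), beside −1.68. Slpi, an inhibitor of elastase, was at 3242 and 326 CPM (−3.31), beside −2.38. Wfdc21, a related small secreted protein, fell by 2.73. Nearly empty barcodes differed in the same direction, with Saa3 at 6248 and 62.3 CPM, Lcn2 at 3265 and 19.9 CPM and Slpi at 2599 and 230 CPM, and the part of free RNA in these differences was not tested.

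The stefin genes Stfa2, Stfa2l1 and Stfa3 were lower as well, with log2 ratios of −2.07, −1.57 and −2.32. The other genes of the 10 largest falls were Mpp7, Csf3, Lipg, Nos2, Gm15987, Cxcl3 and F3. All of these were below 50 CPM in the anti-CD3L1 members and passed the filter only through the control IgG members, so their calls support nothing. Csf3, the gene of the granulocyte colony-stimulating factor, was at 204 CPM in the control IgG members and had no UMI in the anti-CD3L1 members, at least 22.9-fold lower when 3 UMIs over the group are taken as the limit. Nos2 was at 197 and 11.9 CPM (−4.05, −5.93 to −2.69) and F3 at 168 and 14.8 CPM (−3.50, −5.13 to −2.27), beside −4.13 and −4.98 in Retnlg-high cells. Lipg, endothelial lipase, was at 106 and 5.93 CPM (−4.16), and the unnamed gene Gm15987 at 239 and 14.8 CPM (−4.01). Mpp7, a scaffold protein of cell polarity, was at 213 and 5.93 CPM (−5.17), while all cells together had 209 and 1.99 CPM and NK-rule cells 372 and 8.86 CPM.

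Of 17 chemokine genes 8 were tested between the treatments, 6 of them lower and 1 higher, with a median log2 ratio of −1.13 beside 0.31 over all genes. Cxcl2 was at 34380 and 16257 CPM (−1.08, −1.12 to −1.04) and Ccl3 at 7276 and 2182 CPM (−1.74, −1.84 to −1.63). Ccl4, a chemokine closely related to Ccl3, was at 4362 and 1930 CPM (−1.18), Cxcl1 at 405 and 196 CPM (−1.05), Cxcl3 at 445 and 38.5 CPM (−3.53) and Cxcl10, an interferon-induced ligand of Cxcr3, at 180 and 65.2 CPM (−1.46). Of the 6, Cxcl3 was below 50 CPM in the anti-CD3L1 members and passed the filter only through the control IgG members. Ccl6 went the other way, from 72.0 to 347 CPM (2.27, 1.95 to 2.58). In Retnlg-high cells 4 of the 8 were called lower and Ccl6 higher. Among members with at least 2000 UMIs Cxcl2 was at 34383 and 19995 CPM and Cxcl1 at 417 and 285 CPM, both under 2-fold, while Ccl3 was at 7351 and 2548 CPM and Ccl4 at 4392 and 1861 CPM. Between 1000 and 2000 UMIs Cxcl1 was at 27.3 and 57.8 CPM. On thinned cells 96.8% of control IgG members and 82.5% of anti-CD3L1 members had a Cxcl2 UMI, and 70.3% and 45.2% a Ccl3 UMI, against at most 8.82% of NK-rule cells for either gene.

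Of the cytokine list 15 genes were tested, with Il1a lower (782 and 196 CPM, −1.999) and Csf1, the macrophage growth factor, higher (335 and 845 CPM, 1.33), and a median of −0.38. Il1b, at 10625 and 6656 CPM, was not called (−0.67). Of 22 receptor genes 19 were tested. The formyl peptide receptors Fpr1 (1022 and 240 CPM, −2.09) and Fpr2 (461 and 101 CPM, −2.19) and Cd14 (3464 and 1281 CPM, −1.44), a coreceptor for endotoxin, were lower. Tlr2, Il1r2, a decoy receptor for interleukin 1, and P2rx4, an ATP-gated channel, were higher with log2 ratios of 1.18, 1.09 and 1.80. Ptgs2 was lower at 851 and 285 CPM (−1.58), and of 14 tested genes of immunosuppression Nos2 and Ptgs2 were lower and Lgals9, galectin 9, higher (1.36). Sod2, the mitochondrial superoxide dismutase, was lower (2291 and 489 CPM, −2.23), as was Mt1, and the iron genes Ftl1 (7967 and 16397 CPM, 1.04) and Slc40a1, the iron exporter ferroportin (53.1 and 264 CPM, 2.31), were higher, among 12 tested.

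A few hypoxia genes were lower. Of 15 tested Bnip3 (391 and 130.5 CPM, −1.58), P4ha1, a collagen prolyl hydroxylase (−1.13), Pfkfb3, an activator of glycolysis (−1.22), and Higd1a, a mitochondrial protein (−1.69), were called lower and none higher, with a median of −0.68. The same 4 genes were called lower in Retnlg-high cells, where the median of the list was −0.0045. Egln3 was at 147 and 104 CPM and was not called (−0.50, −1.03 to −0.01). Of 16 tested glycolysis genes Hk2, hexokinase 2 (293 and 80.1 CPM, −1.87), and Gpi1 (−1.10) were lower, and 9 were so when the ratios were centred on the median of all genes (median of the list −0.79).

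Most heat shock genes were higher. Of 7 tested heat shock genes 5 were called higher, Hspa1a, Hspa1b, Hsp90aa1, Hsp90ab1 and Dnaja1, with log2 ratios from 1.03 to 1.48 and a median of 1.33. Hsp90aa1, a cytosolic chaperone, went from 720 to 1815 CPM, and nearly empty barcodes had 1213 and 1930 CPM. In Retnlg-high cells 6 of 7 were called higher, with a median of 1.43. In the members the count was 4 when the ratios were centred and 2 without the 5 top cells of each gene. The latter setting takes a larger part of the anti-CD3L1 members than of the control IgG members, which tends to lower these ratios by design. Of 10 tested genes of the integrated and ER stress response Atf3 (517 and 2129 CPM, 2.04) and Ddit3 (198 and 534 CPM, 1.43), both transcription factors, were higher. Fos and Fosb were higher among 12 immediate early genes (1.13 and 1.69). The shares called in these last lists were near the 14.9% of all genes.

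Of 10 tested interferon response genes 6 were called higher and none lower, with a median of 1.55. Rsad2 was at 274 and 1779 CPM (2.70, 2.55 to 2.84) and Isg15, a ubiquitin-like modifier, at 615 and 1749 CPM (1.51, 1.38 to 1.64). Slfn5, Irf7 and Ifit1 had ratios of 1.84, 1.78 and 1.80. In Retnlg-high cells 2 of 9 were called, Rsad2 (3.51) and Irf7 (1.35), and Isg15 had a ratio of 0.96. The rule allows 1 of 4 interferon-response genes in a member, and a shallow cell shows fewer of them. Among members with none of the 4 detected 5 genes were called higher, and 2 were with an S100a8 and S100a9 share of at least 10% (39 anti-CD3L1 members).

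**Figure D4:**
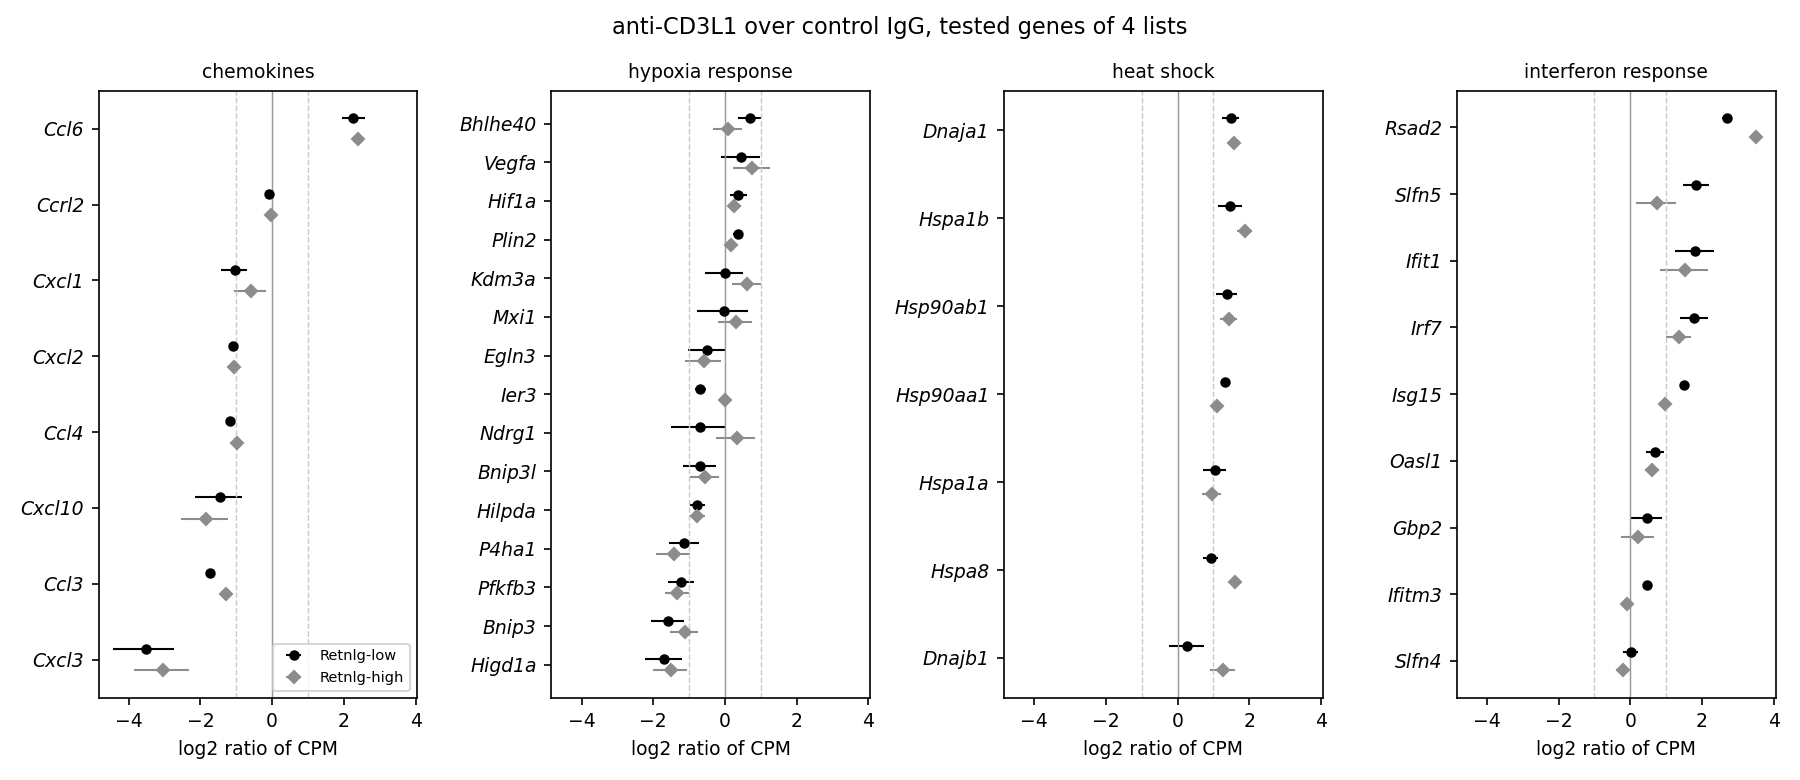
Log2 ratio of CPM, anti-CD3L1 over control IgG (horizontal axis, with counting intervals), for tested genes of 4 lists (vertical axis) in Retnlg-low (black) and Retnlg-high (grey) neutrophils; dashed lines mark 2-fold. Of 8 chemokine genes 6 lay past 2-fold on the lower side in Retnlg-low cells and Ccl6 on the higher side, while 5 of 7 heat shock and 5 of the 9 interferon response genes drawn lay past it on the higher side.

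Other called genes fell into several lists. The survival genes Bcl2a1a, Bcl2a1b and Pmaip1 (1.40, 1.13 and 1.02) were higher and Bnip3 lower among 15 tested of 22. Ctsd, the lysosomal protease cathepsin D, was higher among 13 tumor neutrophil genes (842 and 2422 CPM, 1.53), and the integrin gene Itga4 among 8 aging genes (1.70). The counts called higher in these lists were near or below the 14.9% of all genes. Tgm2 was higher and F3 and F10 lower among 4 tested coagulation genes. Of 5 granule genes tested Lcn2 alone was lower, of 5 glycogen and arachidonate genes Ptgs2 alone, and none of 6 oxidase genes was called. Of 19 tested identity genes Il1r2 was higher and Mmp8, Slpi and Wfdc21 lower. Mmp8 was below 50 CPM in the anti-CD3L1 members and passed the filter only through the control IgG members, so its call supports nothing.

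Of the marker genes of other cell types, Ly6c2, Apoe and C1qa were called higher in the anti-CD3L1 members, with log2 ratios of 2.18, 1.90 and 1.54. Ly6c2 and C1qa were below 50 CPM in the control IgG members. Both passed the filter only through the anti-CD3L1 members, so their calls support nothing. In nearly empty barcodes these genes were at 113, 3074 and 462 CPM in the control IgG library and at 378, 8326 and 1564 CPM in the anti-CD3L1 library. At least 2 markers of other cell types were detected in 211 control IgG members (19.0%) and 88 anti-CD3L1 members (53.0%). Without these cells 380 genes were called higher and 121 lower.

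The 10 largest rises were all of genes below 50 CPM in the control IgG members. They passed the filter only through the anti-CD3L1 members, so their calls support nothing, and single cells decided some of them. Efna5 and Prkca owed all their UMIs in the anti-CD3L1 members to 1 cell each, and 1 cell held 47.5% of those of Tnfaip6, a hyaluronan-binding protein (2.80, beside 0.37 in Retnlg-high cells). Reps2, Colgalt1, Tns1 and the noncoding Gm26917 had log2 ratios of 3.60, 3.15, 2.83 and 2.85 on 36 to 42 UMIs. Gde1, a glycerophosphodiesterase, was at 6.38 and 211 CPM (5.04, 4.40 to 5.73) in 19 and 42 members.

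BC018473 and St6galnac1 were without a UMI in the control IgG members. BC018473 had 1029 UMIs in 124 of 166 anti-CD3L1 members, or 3051 CPM, and was at least 4470-fold higher when the limit is 3 UMIs over the control group. Retnlg-high cells had 1 UMI of it under control IgG and 2038 CPM under anti-CD3L1. Among all cells it had 3 UMIs and 6414 UMIs, and 17.1% of anti-CD3L1 NK-rule cells had a UMI. St6galnac1, a sialyltransferase, had 43 UMIs in 27 members and was at least 187-fold higher, and it was found in 175 of all anti-CD3L1 cells and in 2 of the control IgG cells.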

How the data were processed

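As deposited, the matrices hold the authors' UMI counts for every barcode and 32285 mouse genes, made with Cell Ranger 7.1.0 and not normalized, and the submitters' processing notes name GRCm39. The counts summed to 74850604 and 108246719 UMIs, of which 9147 and 12922 barcodes held at least 500. A deposited table of macrophage genes holds the authors' own fold changes, shares of cells and p-values, made with Seurat 5.1.0, and was not used.

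For each class of cells the UMIs of a gene were added up and divided by all its UMIs (CPM), with exact Poisson intervals for CPM, exact conditional binomial intervals for ratios and exact Clopper-Pearson intervals for shares, at 95%. UMIs of 1 cell are not independent, so intervals are too narrow. A gene was tested with a mean of at least 50 CPM over both classes, and called at 2-fold or more with the interval of the ratio excluding 1. A gene below 50 CPM in 1 class passed the filter only through the other, so its call supports nothing. The 8 genes of the rule and mitochondrial genes were not counted. NK-rule cells were 149 and 850. For shares, each cell was reduced at random to 500 UMIs, and none was shallower. Free RNA and doublets were not removed. Scrublet's automatic threshold called 0 cells in both libraries and so did not work. An alternative dropped the 599 and 1014 cells of highest score.

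Named were the markers and genes of the rule, up to 12 genes each way called in both libraries (12 of 13 lower), the 10 largest changes each way between treatments with cell type markers apart, and of 21 gene lists the called members and up to 4 of the highest. Ccl6, the 13th, was named through its list. The values of a few genes that these rules name are not reported here. Of the list genes, 3 symbols (BC100530, Ero1a and Mx1) were not found in the files. The members, markers and lists were chosen with earlier results of these data known. Promoters came from RefSeq tables of GRCm38.p6 and were matched by symbol. Steps ran in Python 3.11.15 with scanpy 1.11.5, matplotlib 3.10.9, pandas 2.3.3, numpy 2.4.6 and scipy 1.17.1. On simulated counts with 4-fold changes in 200 genes, all changed genes that passed the filter were called, 171 of 1838 genes for the low against high comparison of control IgG, 179 of 2288 for that of anti-CD3L1 and 166 of 2014 between treatments. Of the unchanged genes 0 of 1667, 11 of 2109 and 5 of 1848 were called. Each simulated count was a Poisson draw from the summed profiles, without variation between cells. The simulation thus checks the calculation and does not give the rate of wrong calls in the real cells. Alternatives changed the thresholds of the rule, the scaling, the filter, depth, free RNA, doublets and cells with markers of other types. Leaving out the 5 top cells of each gene, keeping cells with Csf1r UMIs, and thinning the members with none of the 4 interferon genes were chosen after seeing the data.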

Additional observations from a re-analysis of the deposited data

How the results depend on the processing

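No paired analysis was possible because each group was 1 library. Of 1296 gene values under the alternatives 1200 belonged to genes called in the main setting. Of these 1200 values 3 changed direction, and 1062 kept their call while 138 lost it. Changes of direction were not counted for the values of uncalled genes. The reversed log2 ratios of anti-CD3L1 Retnlg-low over Retnlg-high cells were Ngp (0.14) and Camp (0.72) with Retnlg under 0.2%, and Ngp (0.015) without its 5 top cells, and in both settings the few Retnlg-high cells that held these UMIs changed class or were left out. The cause of the other moves was not tested. Counts below name the comparison as low-high (Retnlg-low against Retnlg-high) or treatment (anti-CD3L1 against control IgG in Retnlg-low cells).

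With Retnlg under 0.05%, members were 22.03% (control IgG) and 33.4% (anti-CD3L1) of neutrophils and 13 genes were higher in both libraries. With Retnlg under 0.2% they were 39.8% and 54.8%, with 7 lower in both. With S100a8 and S100a9 at 5% or more, they were 26.2% and 35.7% (100 anti-CD3L1 members), with 18 genes higher low-high in control IgG and 5 in both. At 10% or more they were 21.5% and 24.8% (621 and 39 members), with 13 higher in control IgG and 2 in both. With none of the 4 interferon genes they were 21.8% and 32.6%.

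Without cells with 2 or more markers of other types there were 78 anti-CD3L1 members, 2 genes higher in both and 7 lower in both. With cells with Csf1r UMIs kept there were 1737 control IgG members, 101 genes higher in control IgG, 42 higher and 44 lower in anti-CD3L1, and 5 higher in both. With S100a8, S100a9 and mitochondrial genes out of the total 4 were higher in both. Centred on the median 13 were higher in control IgG and 3 in both, and between treatments 175 were higher and 170 lower. With 10% of the CPM of nearly empty barcodes subtracted 52 were higher in control IgG and 13 in both.

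With a mean CPM of at least 10, low-high counts were 184 higher and 58 lower in control IgG, 234 and 180 in anti-CD3L1, 25 and 27 in both, and 825 and 216 between treatments. With no filter they were 1130 and 170, 256 and 184, 37 and 32, and 1006 and 217. Thinned to 500 UMIs, 48 were higher in control IgG, 36 lower in anti-CD3L1, and 5 higher and 5 lower in both. Without the 5 top cells of each gene 5 were higher in both, and between treatments 171 were higher and 269 lower. Between treatments this setting takes a larger part of the fewer anti-CD3L1 members, which tends to lower their levels by design.

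Shares of members with a UMI grew with depth. Thinned to 1000 UMIs they were 62.4% and 79.9% for Csf3r, 82.0% for Ccl3 in control IgG, 43.1% and 2.60% for Saa3, and 10.7% for Nos2 in control IgG. Not thinned they were 89.9% and 91.0% for Csf3r, 92.5% and 68.7% for Ccl3, 61.7% and 3.01% for Saa3, and 24.4% for Nos2 in control IgG. A minimum of 1000 UMIs, 10% mitochondrial UMIs, the loss of high Scrublet scores, a mean over per-cell CPM and a required identity gene moved no main count or share beyond its limit. The anti-CD3L1 members, at 337266 UMIs in all, limit every statement on genes near the 8.90 CPM that 3 UMIs stand for.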

Other observations

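Cells that met the rule except for a UMI of Csf1r, 628 control IgG and 48 anti-CD3L1 cells had neutrophil messages beside some of macrophages. Csf3r was at 914 and 849 CPM and Cxcl2 at 21824 and 11593 CPM in them, and Apoe was at 909 and 1819 CPM. C1qa was at 177 CPM in those of the control IgG library and at 19.6 CPM in those of the anti-CD3L1 library, against 27.6 and 80.1 CPM in the members. Nearly empty barcodes had more of both, with Apoe at 3074 and 8326 CPM and C1qa at 462 and 1564 CPM. The 84 and 28 cells with an S100a8 and S100a9 share of 1 to 2%, otherwise like the members, had 795 and 874 CPM of Csf3r, 41167 and 15019 CPM of Cxcl2, and 143 and 3497 CPM of Apoe.

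Gde1 and Prkca were also more frequent among all anti-CD3L1 cells. A Gde1 UMI was found in 13.7% of all control IgG cells and 50.3% of all anti-CD3L1 cells, against 24.2% and 21.8% of NK-rule cells. A Prkca UMI was found in 3.77% and 18.8% of all cells and in 75.2% and 82.2% of NK-rule cells. Of the members 0.180% and 0.602% had a UMI of Prkca.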
